A study of Mus musculus with 8 samples.

Results

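Oxidative phosphorylation subunit genes encode the nuclear-made parts of the 4 respiratory chain complexes and of the ATP synthase. They were collected by symbol: Nduf for complex I and its assembly factors, Sdha to Sdhd for complex II, Uqcr for complex III, Cox4 to Cox8 for complex IV and Atp5 for complex V. Of 96 protein-coding genes in RefSeq (GRCm38.p6) that meet this rule, 89 had at least 1 probe set that names no other gene, out of 19938 genes with such a probe set in the series. These 89 genes comprised 36 complex I subunit genes, 7 complex I assembly factors of the Ndufaf kind, 4 complex II genes, 8 complex III genes, 17 complex IV genes and 17 complex V genes. The remaining 7 were not analysed here.

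The arrays compared E14 mouse embryonic stem cells (ESCs) that stably carried an shRNA against Kdm2b, called knockdown here (4 arrays, passages 27 to 30), with E14 ESCs that stably carried a scrambled shRNA, called control (4 arrays, passages 28 to 31). Kdm2b encodes a histone demethylase whose CXXC zinc finger domain binds unmethylated CpG dinucleotides in CpG islands, and the comparison asks which transcripts change when it is depleted. Both groups share the E14 background and a medium with LIF, each rests on a single shRNA sequence, and the sources used here name no separately derived lines within a group, so p-values measure the spread between these samples. With arrays given in the order of replicates 1 to 4 here and below, the log2 signal of Kdm2b was 8.68, 9.12, 9.45 and 8.91 in the knockdown and 10.74, 11.10, 11.34 and 11.20 in the control. It fell by 2.05 (SE 0.18, adjusted p = 0.000891 from limma), and array medians lay between 8.47 and 8.53. Of the markers, 9 ESC genes had mean signals between 11.5 and 14.3, with none passing the test and array means of 13.29 to 13.33 in knockdown against 13.05 to 13.23 in control, whereas the array means of 5 primitive endoderm genes were 8.72 to 9.01 against 8.55 to 8.69 (Sox7 passing the test, and 3 of the 5 when replicate number was blocked). With that block, more genes of the whole series also met a stricter rule with a 1.5-fold limit (counts under the processing). That count is no background share for these marker calls. The part of these markers in the differences below was not tested. As these are bulk RNA samples, less RNA per cell and fewer cells with that RNA cannot be told apart.

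In oxidative phosphorylation, complexes I and II pass electrons from NADH and succinate to coenzyme Q, complex III passes them to cytochrome c and complex IV passes them to oxygen. Complexes I, III and IV pump protons across the inner mitochondrial membrane, and complex V, the ATP synthase, uses the returning protons to make ATP. Most subunits are encoded in the nucleus and a few in mitochondrial DNA, so both genomes have to be expressed for the complexes to form, and mouse ESCs in medium with LIF are known to use respiration beside glycolysis.

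Since KDM2B recognises CpG-rich DNA and NRF1, estrogen-related receptors, the ETS factor GABPA and YY1 are known regulators of respiratory genes, the start sites of the members were examined for CpG dinucleotides and for the binding motifs of these factors. RefSeq windows from 250 bases before to 50 bases after the start (GRCm38.p6) were at hand for 73 of the 89 genes. Members held a median of 20 CpG dinucleotides per window (quartiles 15 and 25), compared with 13 in 17491 protein-coding genes and 7 in all 27025 windows. On either strand, 10 of the 73 windows (13.7%) held GCGCATGCG, a core of the NRF1 motif, compared with 2.41% of protein-coding and 1.81% of all windows. The YY1 letters AAGATGGCG were in 6 windows (8.22%, against 1.94% and 1.49%), the estrogen-related receptor letters TCAAGGTCA in 2 (2.74%, against 0.332% and 0.407%) and the GABPA letters CCGGAAGT in 5 (6.85%, against 5.29% and 4%). At least 1 of the 4 motifs was in 22 windows (30.1%), compared with 9.47% of protein-coding windows. These matches are descriptions of letters and not of bound sites. The median log2 fold change of members with and without the letters was −0.010 and 0.040 for NRF1, 0.085 and 0.011 for the estrogen-related receptor letters, −0.018 and 0.020 for GABPA and −0.0060 and 0.017 for YY1, with no test made.

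The following stretches, each the 250 bases before the start read 5′ to 3′ on the strand of the gene, show 1 gene that rose in the knockdown without any of the motifs and 3 that hold a motif, given in capitals. In the window of Atp5g2 the NRF1 letters occur on both strands and overlap with each other. The letters in Atp5g3 are those of the opposite strand, and the window of Uqcr11 also holds the NRF1 letters, which are not wholly inside the printed stretch. Cox7a2l lies at chr17:83514334-83514583, Atp5g2 at chr15:102671048-102671297, Atp5g3, with the estrogen-related receptor letters, at chr2:73911327-73911576 and Uqcr11, with the GABPA letters, at chr10:80406822-80407071, all on the minus strand.
Cox7a2l: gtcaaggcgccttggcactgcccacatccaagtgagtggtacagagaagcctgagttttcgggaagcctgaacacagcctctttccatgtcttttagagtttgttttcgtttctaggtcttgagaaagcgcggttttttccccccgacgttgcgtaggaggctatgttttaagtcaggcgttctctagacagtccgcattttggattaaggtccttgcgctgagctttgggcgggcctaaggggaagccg
Atp5g2: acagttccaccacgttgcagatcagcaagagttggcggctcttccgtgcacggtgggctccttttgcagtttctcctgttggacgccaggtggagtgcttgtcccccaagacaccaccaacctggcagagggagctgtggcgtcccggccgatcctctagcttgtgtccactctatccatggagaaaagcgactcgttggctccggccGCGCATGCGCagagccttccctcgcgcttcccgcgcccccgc
Atp5g3: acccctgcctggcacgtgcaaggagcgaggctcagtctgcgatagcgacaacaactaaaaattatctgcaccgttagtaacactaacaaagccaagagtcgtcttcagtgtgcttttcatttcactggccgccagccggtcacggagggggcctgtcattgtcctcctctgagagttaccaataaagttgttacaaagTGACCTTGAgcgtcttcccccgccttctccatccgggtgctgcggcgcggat
Uqcr11: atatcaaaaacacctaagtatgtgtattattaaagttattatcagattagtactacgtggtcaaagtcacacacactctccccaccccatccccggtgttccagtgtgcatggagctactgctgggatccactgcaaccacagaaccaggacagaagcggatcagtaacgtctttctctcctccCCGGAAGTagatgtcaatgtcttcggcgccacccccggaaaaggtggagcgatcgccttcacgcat
These stretches hold 13, 19, 15 and 11 CpG dinucleotides in that order, and among these genes the limma test passed for Cox7a2l.

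As a set, the subunit genes moved little. A single member, Ndufa4l2, met the gene rule of the study's methods (adjusted p under 0.05 in a majority of the gene's probe sets and at least 1.5-fold in the most significant of them), where 2.85% of all 19938 genes met it in either direction. With no fold limit, 4 members rose (Ndufa4l2, Ndufa1, Ndufb11 and Cox7a2l), against 5.84% of all genes, and 0 fell, against 4.68% of all genes (limma, adjusted p under 0.05 for the brightest probe set of each gene). At an unadjusted p under 0.05, 18 members were higher (20.2%, compared with 16.5% of all genes) and 6 lower (6.74%, compared with 13.4%). The knockdown and control arrays did not overlap for 22 members, a share of 24.7% compared with 20.6% of all genes. The knockdown was the higher group in 18 of these (20.2% of members, compared with 11.6% of all genes) and the lower group in 4 (4.49%, compared with 9.03%). By the adjusted test the shares of members were under the background in both directions, while before adjustment and by overlap a larger share of members than of all genes was higher and a smaller share was lower.

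The log2 fold changes of the 89 genes had a median of 0.011 (quartiles −0.051 and 0.114), while that of all genes was 0.045. With dim probe sets left out (mean signal under the median probe set), that of all genes kept was 0.0095. The 85 members kept had a median of 0.011, so the gap in medians was not seen there. The fold changes of the 89 genes were positive in 50 genes and negative in 39, which is 56.2% positive compared with 61.7% of all genes. Their SD was 0.187, compared with 0.266 over all genes, and 0.134 when Ndufa4l2 was left out. For 86 members (96.6%, compared with 87.1% of all genes) the 95% confidence interval of the change lay entirely within 1.5-fold either way, and for 57 members (64.0%, compared with 38.3%) within 1.2-fold. The 3 whose interval reached beyond 1.5-fold were Ndufa4l2, Cox7a1 and Cox6b2. The probe sets of the members were bright, with a median signal of 11.79 on the log2 scale compared with 8.97 over all genes, and their changes were measured with a median SE of 0.064 compared with 0.078.

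**Figure D1:**
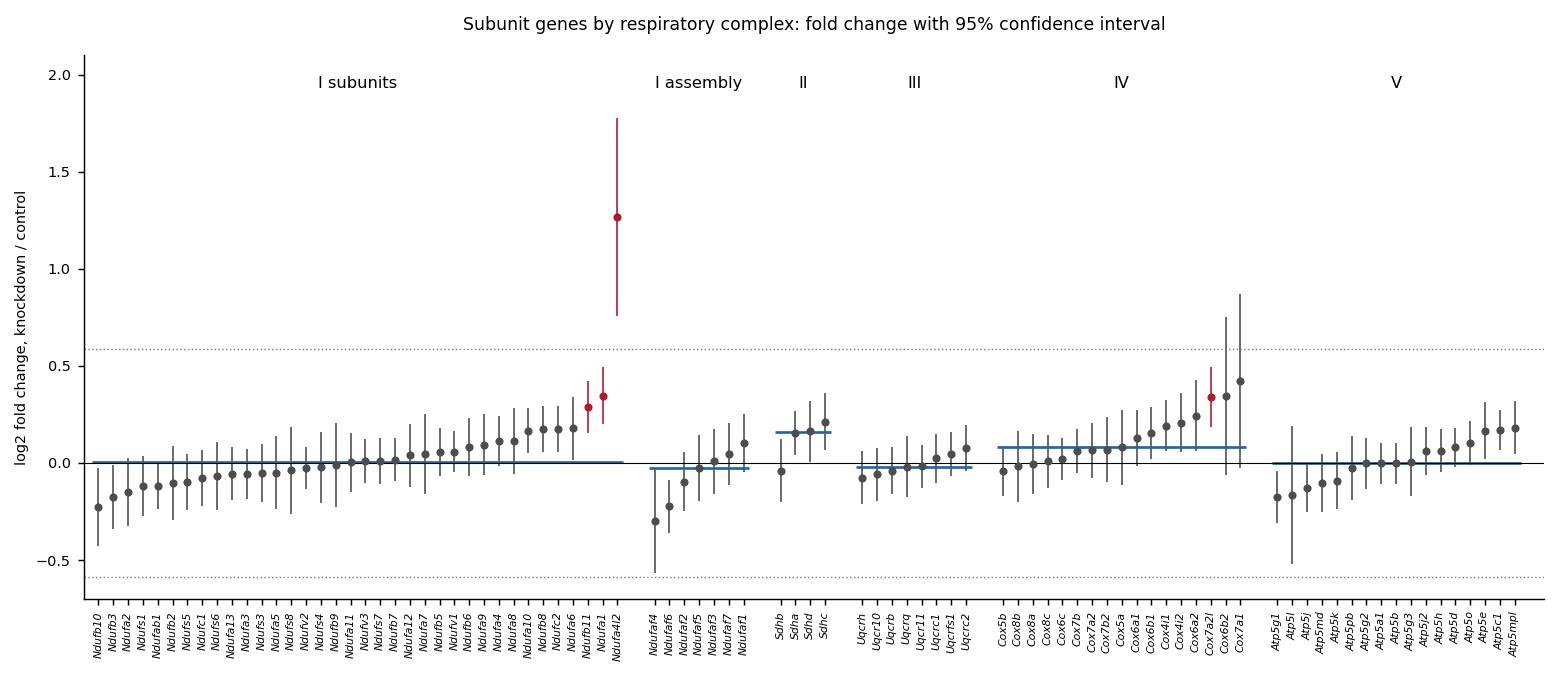
Log2 fold change (knockdown over control) of the 89 genes by complex, from limma, with 95% confidence intervals. Red points passed the test at an adjusted p under 0.05, blue lines are medians of a complex, and dotted lines mark 1.5-fold either way. Points lie close to 0 apart from Ndufa4l2 at 1.27, and complexes II and IV have the highest medians at 0.158 and 0.081.

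Ndufa4l2 had by far the widest difference among the members. It encodes a paralogue of NDUFA4 and is best known as a gene induced in hypoxia through HIF1. Its log2 signal was 10.69, 10.01, 9.55 and 10.52 in the knockdown and 8.99, 9.01, 8.82 and 8.89 in the control. All knockdown arrays lay above all control arrays, and the knockdown arrays were spread much more widely than the control arrays. The log2 fold change was 1.27 (SE 0.22, adjusted p = 0.0150 from limma), a 2.41-fold rise with a 95% interval of 1.69 to 3.43, and its adjusted p lay between 0.00373 and 0.0494 when each array was left out in turn. In passages 28 to 30 alone, with the passage as a block and 3 arrays per group, the log2 fold change was 1.09 with an adjusted p of 0.115 from limma. Ndufa4, the related gene whose product was long counted to complex I and is now known as a complex IV subunit, read 11.80, 11.89, 11.90 and 11.81 in knockdown and 11.79, 11.79, 11.72 and 11.65 in control arrays. Its groups did not overlap, by a narrow margin, and the difference of 0.11 (SE 0.06, 95% interval −0.01 to 0.24) did not pass the test (adjusted p = 0.244 from limma).

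Ndufa4 and Ndufa4l2 are counted to complex I here by symbol only. The complex I genes that rose beside Ndufa4l2 were Ndufa1 and Ndufb11, both X-linked genes for small accessory subunits of the membrane arm. Ndufa1 read 9.97, 10.07, 10.02 and 10.18 in the knockdown and 9.80, 9.70, 9.73 and 9.62 in the control. Ndufb11 read 12.90, 12.81, 12.84 and 12.82 against 12.64, 12.62, 12.46 and 12.50. For both genes every knockdown array exceeded every control array. The log2 fold changes were 0.35 for Ndufa1 (SE 0.06, adjusted p = 0.0180 from limma) and 0.29 for Ndufb11 (SE 0.06, adjusted p = 0.0244), and the second probe set of Ndufb11 gave 0.29 as well (adjusted p = 0.0355). Neither call was kept in every fit that left out 1 array: Ndufa1 did not pass when knockdown replicate 2 or 1 of control replicates 2, 3 and 4 was absent (adjusted p up to 0.0609), and Ndufb11 did not when 1 of knockdown replicates 2 and 4 or of control replicates 3 and 4 was absent (up to 0.0741). Cox7b, the remaining one of 3 X-linked members, had a difference of 0.06 (adjusted p = 0.468 from limma). Among all 739 X-linked genes, a grouping chosen after the values were seen, 66 (8.93%, compared with 5.84% of all genes) rose and 35 (4.74%, compared with 4.68%) fell. Their median was 0.047, and that of all genes was 0.045.

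The remaining 33 complex I subunit genes did not pass the test, and the median over all 36 was 0.0068. The 6 measured core subunits of the peripheral arm, which holds the flavin and the iron-sulphur clusters (Ndufs1, Ndufs3, Ndufs7, Ndufs8, Ndufv1 and Ndufv2) had log2 fold changes between −0.12 and 0.06, and for 5 of them the 95% interval lay within 1.2-fold. The 30 genes counted as accessory subunits by symbol, Ndufa4 and Ndufa4l2 among them, had a median of 0.013 and spanned −0.23 to 1.27. The upper end is Ndufa4l2, and the next highest was Ndufa1 at 0.35. At the low end stood Ndufb10, a membrane arm subunit, with 8.96, 9.25, 9.31 and 9.30 in knockdown and 9.48, 9.49, 9.42 and 9.34 in control arrays. Its groups did not overlap, with knockdown replicate 1 furthest from control, and the difference of −0.23 (SE 0.09) had an adjusted p of 0.145 from limma.

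The 7 assembly factors, which build complex I without remaining in it, had a median of −0.024 and none passed the test. Ndufaf6, needed early in assembly, read 9.20, 9.20, 9.29 and 9.34 in knockdown and 9.42, 9.41, 9.54 and 9.54 in control arrays, so all knockdown arrays were below all control arrays. The difference was −0.22 (SE 0.06, adjusted p = 0.0558 from limma, and 0.0397 when replicate number was blocked). Ndufaf4 had the lowest fold change of all members, −0.30 (SE 0.12, adjusted p = 0.152), with 9.74, 10.02, 10.24 and 9.75 in knockdown against 10.28, 10.24, 10.35 and 10.10 in control arrays. Here knockdown replicate 3 lay among the control arrays, and without it the adjusted p was 0.0284. Ndufaf1, another early assembly factor, had a difference of 0.10 (adjusted p = 0.351).

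**Figure D2:**
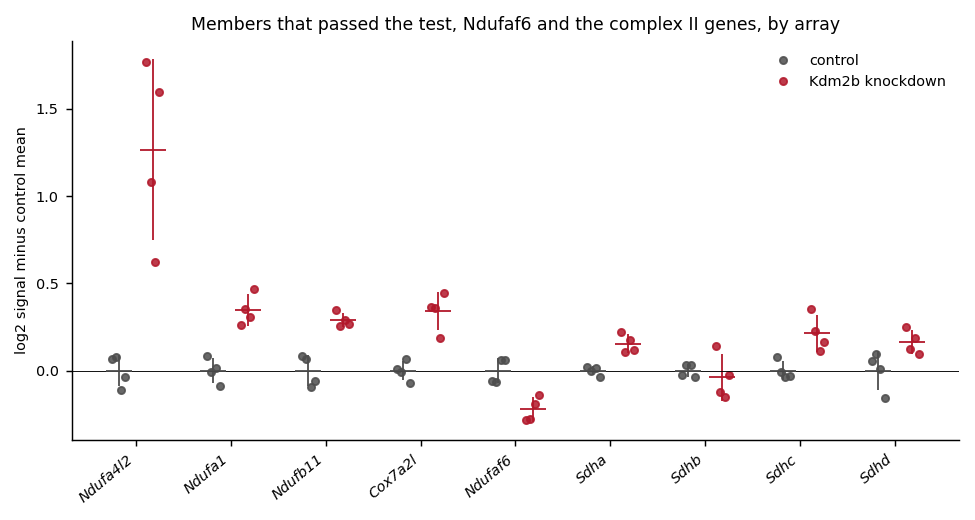
Log2 signal of each array minus the control mean of the gene, for the 4 genes that passed the test, Ndufaf6 and the 4 complex II genes. Points are arrays (grey control, red knockdown), horizontal bars are means and vertical bars SD over 4 arrays. Ndufa4l2 has the widest gap between its means (1.27), and Sdhb is the complex II gene whose groups overlap.

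Complex II, succinate dehydrogenase, is also an enzyme of the TCA cycle, and all its 4 subunits were measured. Sdha, the flavoprotein that oxidises succinate, read 12.79, 12.67, 12.74 and 12.68 in knockdown and 12.59, 12.56, 12.59 and 12.53 in control arrays. Sdhc, a membrane anchor, read 12.60, 12.48, 12.36 and 12.41 against 12.33, 12.24, 12.21 and 12.22. Sdhd, the other anchor, read 11.76, 11.64, 11.70 and 11.61 against 11.57, 11.61, 11.52 and 11.36. The groups of Sdha and Sdhc were apart, and those of Sdhd came close at 11.61 without overlapping. The log2 fold changes were 0.15 for Sdha (SE 0.05, adjusted p = 0.0962 from limma), 0.21 for Sdhc (SE 0.07, adjusted p = 0.0824) and 0.16 for Sdhd (SE 0.07, adjusted p = 0.182), so none passed the test. Sdhb, the iron-sulphur subunit, read 11.71, 11.44, 11.41 and 11.54 in knockdown and 11.54, 11.60, 11.60 and 11.53 in control arrays, with a difference of −0.04 (SE 0.07, adjusted p = 0.756). Leaving out knockdown replicate 3 brought Sdhc to an adjusted p of 0.0427.

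The 8 complex III genes were the tightest set: the 95% interval of each lay within 1.2-fold. Their median was −0.019 and their log2 fold changes ran from −0.075 to 0.076, with overlapping groups in every gene. The smallest p-values belonged to Uqcrc2, a core protein, at 0.08 (SE 0.05, adjusted p = 0.394 from limma), Uqcrh, the hinge protein, at −0.08 (SE 0.06, adjusted p = 0.456) and Uqcr10, a small subunit, at −0.06 (SE 0.06, adjusted p = 0.572).

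In complex IV, cytochrome c oxidase, 14 of 17 genes (82.4%, compared with 61.7% of all genes) had a positive fold change and the median was 0.081, with 1 gene passing the test. This was Cox7a2l, which encodes a factor that joins complexes III and IV into supercomplexes. It read 10.86, 10.86, 10.68 and 10.94 in knockdown and 10.51, 10.48, 10.56 and 10.43 in control arrays, and the groups did not overlap. The log2 fold change was 0.34 (SE 0.07, adjusted p = 0.0213 from limma), and the second probe set gave 0.28 (adjusted p = 0.0467). Leaving out replicate 2 or 4 of either group ended the call, with an adjusted p of at most 0.0711. Among its relatives, Cox7a2, the isoform of most tissues, differed by 0.07 (adjusted p = 0.536). Cox7a1, the heart and muscle isoform, read 11.56, 10.96, 10.71 and 11.13 in knockdown and 11.09, 10.64, 10.42 and 10.53 in control arrays. Its arrays overlapped between groups, yet the knockdown array was above the control array of the same number in all 4 pairs. Arrays of the same number came from different passages. The difference of 0.42 (SE 0.20) had an adjusted p of 0.219 from limma, and of 0.0224 when replicate number was blocked. In the fit with passage as a block and 3 arrays per group, the difference was 0.22 with an adjusted p of 0.617 from limma. The array means of 5 mesoderm and muscle markers lay between 8.18 and 8.43 in knockdown and between 8.24 and 8.40 in control. Of these markers, Actc1 fell by 0.42 (adjusted p = 0.00385 from limma) and the other 4 did not pass the test. That is 20% of the list, compared with 4.68% of all genes that fell. The fold changes were positive in 3 of the markers and negative in 2.

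Several complex IV subunits come as a general and a tissue-restricted isoform, and these are given side by side. Cox4i1, the general form of the regulatory subunit 4, read 12.73, 12.72, 12.56 and 12.75 in knockdown and 12.48, 12.52, 12.48 and 12.50 in control arrays (difference 0.19, SE 0.06, adjusted p = 0.0779 from limma). Cox4i2, its lung-enriched and hypoxia-responsive form, read 9.62, 9.53, 9.35 and 9.56 against 9.30, 9.28, 9.36 and 9.28 (difference 0.21, SE 0.07, adjusted p = 0.0960). In both genes knockdown replicate 3 was the lowest of its group. Cox6a1 differed by 0.13 (SE 0.06, adjusted p = 0.236) and its muscle counterpart Cox6a2 by 0.24 (SE 0.08, adjusted p = 0.102), with 8.72, 8.63, 8.38 and 8.61 in knockdown and 8.41, 8.39, 8.30 and 8.27 in control arrays. Cox6b1 differed by 0.15 (SE 0.06, adjusted p = 0.149) and the testis form Cox6b2 by 0.34 (SE 0.18, adjusted p = 0.264), with 11.63, 11.24, 10.71 and 11.28 against 11.11, 10.72, 10.80 and 10.86. Knockdown replicate 3 was again the lowest of its group in both tissue-restricted forms, and without it Cox4i1, Cox4i2, Cox6a2 and Cox6b2 passed the test. By the gene rule, which has a fold limit, 829 genes of the whole series were called without this array, compared with 569 with it. No share of all genes without a fold limit is given for this fit. By the gene rule 1 member was called with or without this array. This array also had the highest Kdm2b signal of the knockdown group (9.45), and the part of that in these values was not tested. Cox7b and Cox7b2 differed by 0.06 and 0.07, and Cox8a, Cox8b and Cox8c by −0.01, −0.02 and 0.01, none of them past the test. Of these, Cox7b2 (means 6.38 in knockdown and 6.32 in control) and Cox8b (8.01 and 8.03) lay below the array medians of 8.47 to 8.53. Little can be read from their small differences. Cox6a2, given above, also read below these medians in all control arrays and in knockdown replicate 3. Its difference is to be read with caution. No test was made between isoforms.

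**Figure D3:**
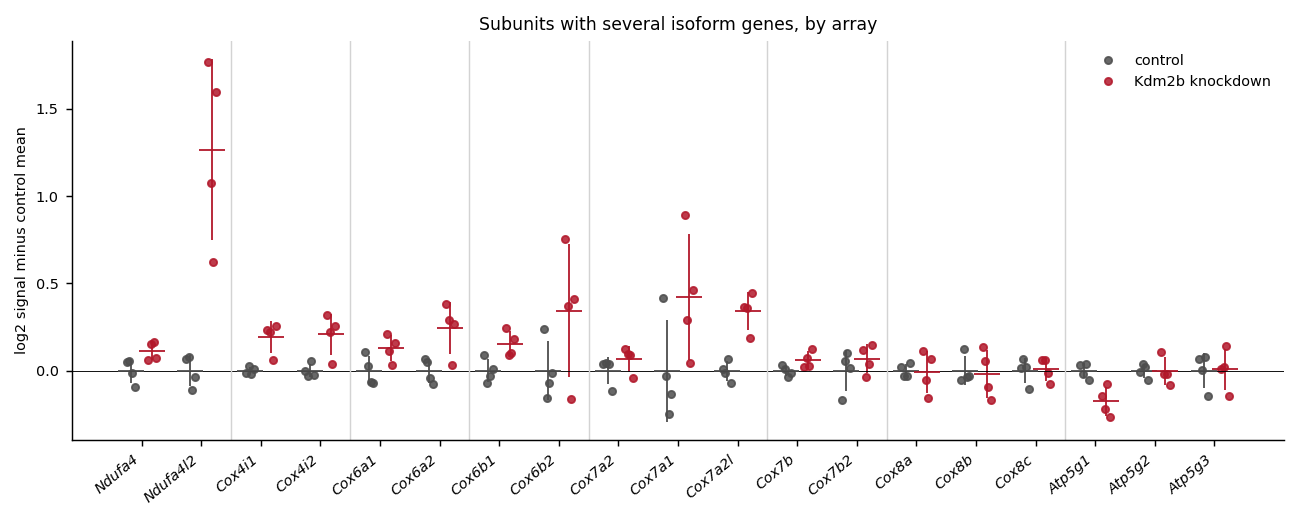
Log2 signal of each array minus the control mean of the gene, for subunits with several isoform genes, separated by grey lines. Points are arrays (grey control, red knockdown), horizontal bars are means and vertical bars SD over 4 arrays. Ndufa4l2 has the largest difference, and its knockdown arrays are the most scattered (SD 0.52), followed by those of Cox6b2 (SD 0.38) and Cox7a1 (SD 0.36), while the Cox8 and Atp5g2 and Atp5g3 points lie around 0.

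Complex V genes had 8 positive and 9 negative fold changes (47.1% positive, compared with 61.7% of all genes). Their median was −0.0020, compared with 0.045 over all genes and 0.0095 over all genes with dim probe sets left out. None passed the test. Atp5c1, the gamma subunit of the rotating central stalk, read 13.42, 13.50, 13.47 and 13.46 in knockdown and 13.31, 13.30, 13.28 and 13.29 in control arrays. The groups were clearly apart, and the difference of 0.17 (SE 0.05) had an adjusted p of 0.0549 from limma. Atp5mpl, a small membrane subunit, read 11.81, 11.95, 11.78 and 11.98 against 11.69, 11.71, 11.70 and 11.70 (difference 0.18, SE 0.06, adjusted p = 0.101). Atp5b, the catalytic beta subunit, differed by −0.0020 (SE 0.05). The proton-carrying c subunit is made from 3 genes that encode the same mature protein. Atp5g1 read 13.57, 13.49, 13.63 and 13.44 in knockdown and 13.74, 13.69, 13.75 and 13.66 in control arrays, all knockdown arrays being lower, with a difference of −0.18 (SE 0.06, adjusted p = 0.103) and −0.16 for its second probe set. Without knockdown replicate 3, Atp5mpl and Atp5g1 passed the test (adjusted p = 0.0462 and 0.0456 from limma). Atp5g2 and Atp5g3 differed by −0.0028 (adjusted p = 0.981) and 0.0069 (adjusted p = 0.964). By structural group, chosen after the values were seen, the median was 0.081 for the 5 F1 subunits (head and central stalk). It was 0.019 for the 4 of the peripheral stalk and −0.092 for the 5 other membrane subunits. Within F1, Atp5a1 and Atp5b of the head differed by −0.0027 and −0.0020. Atp5c1, Atp5d and Atp5e of the central stalk differed by 0.17, 0.081 and 0.17. In Atp5l, a membrane subunit with 6 probe sets at −0.20 to −0.14, knockdown replicate 1 was the lowest array for all 6.

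Across arrays, the medians of complexes followed different replicates. Relative to the control mean of each gene, the median deviation of the 89 genes was 0.055, 0.020, 0.023 and 0.017 in the knockdown arrays, while that of all genes was 0.103, 0.039, −0.000080 and 0.018. The 4 complex II genes stood at 0.236, 0.114, 0.141 and 0.105 and the 17 complex IV genes at 0.212, 0.092, 0.035 and 0.148. In both sets knockdown replicate 1 was the highest array, as it was for all genes. Complex III stayed between −0.017 and 0.026 in the 4 knockdown arrays.

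**Figure D4:**
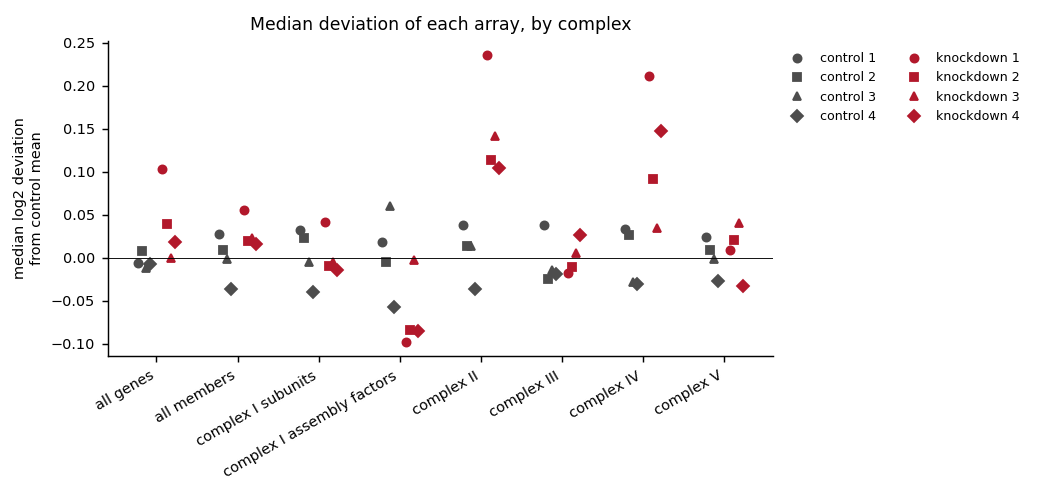
Median over genes of the log2 deviation from the control mean, for each array (symbols, see key) and each complex, beside all members and all genes. Knockdown replicate 1 is highest for complexes II (0.236) and IV (0.212) and for all genes (0.103), and the complex III arrays lie close to 0.

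Other genes of the pathway were taken from companion lists, and their shares stand beside the 5.84% of all genes that rose and the 4.68% that fell. These background shares are of the fit without a block and are no measure for the blocked counts below. With the block, 652 genes of the series met the gene rule, compared with 569 without it. That rule has a fold limit, which the blocked counts below do not have. Of 13 measured genes for cytochrome c and coenzyme Q synthesis, 2 rose (15.4%) and 0 fell, with 6 positive and 7 negative fold changes and a median of −0.022. With replicate number blocked, 2 rose and Coq3 fell (adjusted p = 0.0450 from limma). The genes that rose were Coq8a, a kinase-like protein of coenzyme Q synthesis, at 0.50 (SE 0.11, adjusted p = 0.0333 from limma), and Coq2, the prenyltransferase of that route, at 0.29 (SE 0.07, adjusted p = 0.0389). Cycs, cytochrome c itself, differed by −0.04 (adjusted p = 0.731). Of 17 TCA cycle genes, 3 rose (17.6%) and 0 fell, with a median of 0.10. Idh2, the NADP-dependent mitochondrial isocitrate dehydrogenase, read 12.75, 12.31, 12.03 and 12.31 in knockdown and 11.92, 11.64, 11.45 and 11.57 in control arrays, with groups apart, and met the gene rule at 0.70 (SE 0.15, adjusted p = 0.0297). Pdha1, a pyruvate dehydrogenase subunit, and Idh3a, of the NAD-dependent isocitrate dehydrogenase, rose by 0.32 (adjusted p = 0.0315) and 0.24 (adjusted p = 0.0362, and 0.0635 when blocked). With replicate number blocked, 4 TCA cycle genes rose, Fh1 and Pcx being added (adjusted p = 0.0469 and 0.0412 from limma). The calls of Coq8a, Coq2, Idh2, Pdha1 and Idh3a were lost when some single arrays were left out, among them knockdown replicates 2 and 4.

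Of 34 assembly factors outside the symbol rule, 4 rose (11.8%) and 1 fell (2.94%), with a median of −0.028. When replicate number was blocked, 4 rose and 5 fell, Tmem70 joining those that rose, Cox15 leaving them, and Bcs1l, Ecsit, Uqcc3 and Atpaf2 joining Cox20. Cox20, a chaperone of the mitochondrially made COX2 protein, read 9.77, 9.68, 9.64 and 9.56 in knockdown and 10.58, 10.68, 10.58 and 10.32 in control arrays. The groups were far apart, the fall by 0.88 (SE 0.08, adjusted p = 0.0015 from limma) met the gene rule, and the call held when each array was left out. Sdhaf4, which matures the SDHA subunit, read 8.92, 8.95, 8.90 and 8.96 against 8.52, 8.62, 8.49 and 8.32 and rose by 0.44 (SE 0.07, adjusted p = 0.0084). The other rises were Foxred1 (complex I) at 0.29, Uqcc2 (complex III) at 0.31 and Cox15 (heme a synthesis) at 0.24 (adjusted p = 0.0528 when blocked), each lost in some fits with 1 array left out.

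The 18 regulators of mitochondrial gene expression held 0 calls at an adjusted p under 0.05. Before adjustment, at p under 0.05, 2 of them were higher (11.1%, compared with 16.5% of all genes) and 4 lower (22.2%, compared with 13.4%). Their median was −0.102. With replicate number blocked, 3 fell (Mterf3, Pprc1 and Nrf1) and 0 rose, with no share of all genes at hand for that fit. Mterf3, a repressor of mitochondrial transcription, differed by −0.28 (adjusted p = 0.0577 from limma, and 0.0410 when replicate number was blocked), and Nrf1, whose motif was counted above, by −0.20 (adjusted p = 0.0841, and 0.0492 when blocked). Tfam, the factor that packages and transcribes mitochondrial DNA, differed by −0.31 (adjusted p = 0.0858), and Esrra, an estrogen-related receptor, by 0.19 (adjusted p = 0.0754). Of 13 mitochondrially encoded subunits, 2 had a probe set of their own. ND3 read 13.43, 13.63, 13.70 and 13.63 in knockdown and 13.69, 13.76, 13.72 and 13.71 in control arrays (difference −0.12, SE 0.07, adjusted p = 0.293), and COX2 differed by −0.04 (SE 0.07, adjusted p = 0.772).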

How the data were processed

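Total RNA of 8 E14 ESC samples (4 Kdm2b knockdown, 4 control) was hybridised to Affymetrix whole-transcript mouse gene arrays. The authors deposited log2 values per probe set made with RMA in oligo 1.18.1, so background correction, quantile normalization and probe summary were already done. RMA compresses changes of dim probe sets, and the number of arrays limits the precision. Groups and replicate numbers come from the labels. Of 35556 probe sets, 21789 name 1 gene, 1621 several and 12146 none here; names come from GEO's platform annotation, updated through RefSeq (GRCm38.p6). Where a gene had several probe sets (17 members), the one with the highest mean is given; those of Atp5g2 and Atp5pb differed in sign.

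limma 3.58.1 (R 4.3.3; lmFit, eBayes, two-sided, checked on simulated data) was fitted to all probe sets without a block, and p-values were adjusted over all of them (Benjamini-Hochberg). Same-numbered arrays deviated together (correlations 0.118 to 0.355, other pairs −0.231 to 0.0747), so a blocked result is given where it changes a call. The block raised the number of genes in the series that met the gene rule from 569 to 652. The members and lists were chosen with earlier results of these data known. Named genes were Kdm2b, members meeting the gene rule, the 3 smallest p-values per complex, complex II, isoform pairs, the 3 largest rises and falls, and, in each companion list, genes meeting the rule and the 2 smallest p-values; further genes were named after their values were seen. Alternatives were the block, passages 28 to 30, each array left out, an intensity trend, centring, a second quantile normalization, dim probe sets left out and adjustment over probe sets that name 1 gene. Figures were drawn with matplotlib 3.10.9.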

Additional observations from a re-analysis of the deposited data

Results flagged for a closer look

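In 3 of 68 groups of 4 arrays examined among the named members, 1 array lay far from the other 3, and chance gives such a gap in about 1 in 20 groups. Cox4i1 in knockdown replicate 3 read 12.56, while the other knockdown arrays read 12.72 to 12.75. Cox7a2 in control replicate 4 read 12.13, below 12.28 to 12.29 in the other control arrays. Cox8b in control replicate 2 read 8.155, above 7.977 to 8.002 in the others.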

How the results depend on the processing

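The call of Ndufa4l2 by the gene rule was kept under every alternative but passages 28 to 30 (3 arrays per group), where 0 members met it. The 4 members that rose became 10 with dim probe sets left out, 10 with an intensity trend, 9 after a second quantile normalization and 0 in passages 28 to 30, and between 1 (without knockdown replicate 2 or control replicate 4) and 11 (without knockdown replicate 3) when single arrays were left out. Calls over the whole series under these alternatives were counted by the gene rule. As that rule has a fold limit, they are no background share for these counts. They numbered 569 in the main fit and 160 in passages 28 to 30. With dim probe sets left out, with an intensity trend and after a second quantile normalization they numbered 506, 591 and 574. Without knockdown replicate 2, control replicate 4 or knockdown replicate 3 they numbered 358, 428 and 829. The count of members that fell was 1 with the replicate number as a block, with adjustment over probe sets naming 1 gene, with dim probe sets left out, with an intensity trend and after a second quantile normalization, and 0 to 2 when single arrays were left out (2 without knockdown replicate 3). With the block, 5 members rose, Cox7a1 being added, and the member that fell was Ndufaf6. The median log2 fold change of the 89 genes was −0.0076 with arrays centred and 0.042 after a second quantile normalization, and 0.0071 to 0.032 with single arrays left out, so its sign is not settled. That of complex I was −0.020 in passages 28 to 30 and 0.037 after quantile normalization (−0.0042 to 0.016 with single arrays left out), and that of complex III 0.0022 and 0.027 (−0.035 to −0.0040). With single arrays left out, the medians were −0.089 to −0.0038 for the complex I assembly factors, 0.13 to 0.18 for complex II, 0.072 to 0.14 for complex IV and −0.011 to 0.024 for complex V, whose sign is not settled either. Of 680 values for 45 named genes, 578 kept direction and side of the threshold, 44 lost the call, 29 gained it, 1 moved and 28 changed sign, all of them in 7 genes that passed in neither fit. After a second quantile normalization, Atp5g2 stood at 0.0070, Cox8a at 0.025, Cox8c at −0.0077 and Sdhb at 0.0040. With arrays centred, Atp5g3 stood at −0.012 and Cox8c at −0.011, and in passages 28 to 30 Atp5g3 at −0.043, COX2 at 0.022 and Cox8c at −0.044. The mean over the probe sets of Atp5g2 was 0.0016. With single arrays left out, Atp5g2 ranged from −0.040 to 0.024, Atp5g3 from −0.042 to 0.058, COX2 from −0.077 to 0.025, Cox8a from −0.046 to 0.043, Cox8b from −0.069 to 0.032 and Cox8c from −0.026 to 0.036. The cause of these shifts was not tested.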

Other observations

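Probe sets that name a member together with another gene were left out of the comparisons. There were 6, for Cox7c with Gm12338, for Ndufs5 with Ndufs5-ps and for Ndufb4 with Ndufb4b, and their log2 fold changes lay between −0.078 and 0.023, none past the test.

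Among the marker lists, fibroblast markers had array means of 8.69 to 8.99 in knockdown and 8.53 to 9.0 in control, with 1 of 7 meeting the gene rule (Thy1, higher), and 3 of 7 rose at an adjusted p under 0.05 from limma when replicate number was blocked. With that block, 652 genes of the series met the gene rule, compared with 569 without it. The gene rule has a fold limit, so this is no background share for the blocked fibroblast count. Of 4 neural markers, 2 fell by that rule (Neurod1 and Pax6). The other 2 were higher in the knockdown without passing the test: Tubb3 by 0.29 and Sox1 by 0.18 (adjusted p = 0.0813 and 0.211 from limma).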
